A study of Homo sapiens with 16 samples.

Results

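Transcript levels were examined for 10 genes of JAK/STAT signalling, namely the kinases *JAK1*, *JAK2* and *JAK3*, the transcription factors *STAT3*, *STAT5A* and *STAT5B*, and the feedback inhibitors *SOCS1*, *SOCS2*, *SOCS3* and *CISH*. They were chosen by gene name, and all 10 were found among the 60357 genes of the in vitro count tables, with 1 row each. All 10 were among the 15863 genes that reached 600 reads when the 12 in vitro libraries were summed, whereas *SOCS1* was below this minimum over the 6 libraries of SKNO-1. In the libraries in which the stem cell marker *CD34* was near 0, *SOCS1*, *SOCS2*, *SOCS3* and *CISH* were several times higher than in the others. These libraries crossed the siRNA labels. None of the 10 genes passed edgeR's test between the labelled groups, and 0 of all genes tested did. DESeq2 called 2 of the 9 tested in SKNO-1, against 2.73% of all genes. Between the lines it called 1 of the 10, against 2.31%. It called 0 of the 10 in Kasumi-1, against 8.5% of all genes. For the difference of the siRNA effect between the lines it called 0 of the 10, against 0.744%.

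RNA-seq was carried out on Kasumi-1 and SKNO-1, human acute myeloid leukaemia cell lines with the translocation that joins *RUNX1* to *RUNX1T1* (also called *ETO*) and makes the RUNX1/ETO fusion. Lipid nanoparticles (LNPs) loaded with siRNA were given to the cells at 2 µg/ml for 24 h, and RNA was taken on day 3. Each line had 3 libraries labelled siRE-mod, an active siRNA against the fusion transcript, and 3 labelled siMM-mod, its mismatch control. All 4 groups therefore received LNPs and a chemically modified siRNA, and untreated cells were not analysed here. Kasumi-1 was grown with serum alone and SKNO-1 with more serum and with GM-CSF, a cytokine on which that line depends, so the effect of the line and that of the medium cannot be told apart. A single line stands for each background, and the labels do not say whether replicates were separate cultures, so the p-values measure the spread between these libraries. Total counts on genes ranged from 60559466 to 147990959 per library.

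Cytokine receptors such as those for GM-CSF, IL-3 and IL-6 have no kinase of their own and rely on JAKs bound to their tails. On ligand binding, the JAKs phosphorylate the receptor and then STAT proteins, which pair, enter the nucleus and bind DNA. STAT5A and STAT5B are closely related and relay part of the signal of GM-CSF and IL-3, in which JAK2 is the main kinase. *CISH* and the *SOCS* genes are induced by STATs, and their products bind receptors or JAKs and dampen the signal, which makes their transcripts a common readout of pathway activity in blood cells. Protein levels and phosphorylation were not measured in these libraries.

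Levels are given as normalized CPM, that is, CPM recomputed from the counts with edgeR's TMM scaling over the 12 libraries. *CD34* and *RUNX1T1*, the 3′ partner of the fusion, did not follow the labels. *CD34* lay between 117.3 and 421.2 normalized CPM in 6 libraries and between 0.11 and 0.63 in the other 6. The libraries with *CD34* near 0 were those labelled Kasumi-1 siMM-mod replicate 3, Kasumi-1 siRE-mod replicates 1, 2 and 3, and SKNO-1 siRE-mod replicates 2 and 3. The libraries with high *CD34* were those labelled Kasumi-1 siMM-mod replicates 1 and 2, SKNO-1 siMM-mod replicates 1, 2 and 3, and SKNO-1 siRE-mod replicate 1. Each set contained libraries labelled for either line and for either siRNA.

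Within each set, *RUNX1T1* was split by a wide gap. With high *CD34*, it was between 296.8 and 329.4 normalized CPM in 3 libraries (Kasumi-1 siMM-mod replicate 1, SKNO-1 siMM-mod replicates 1 and 2). It was between 92.9 and 127.2 in the other 3 (Kasumi-1 siMM-mod replicate 2, SKNO-1 siMM-mod replicate 3, SKNO-1 siRE-mod replicate 1). With *CD34* near 0, it was between 159.2 and 164.5 in Kasumi-1 siMM-mod replicate 3, Kasumi-1 siRE-mod replicate 2 and SKNO-1 siRE-mod replicate 2. It was between 37.3 and 44.4 in Kasumi-1 siRE-mod replicates 1 and 3 and SKNO-1 siRE-mod replicate 3. In what follows, libraries are named by their labels, and every direction between groups is one between labels. Whether labels were exchanged between libraries was not tested, and an exchange would change what each labelled difference compares. The *CD34* and *RUNX1T1* readings were made from the data and are used to order values only, without a mean or a test.

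A list of *CD34*, *KIT*, *MPO*, *CD33*, *PTPRC* and *RUNX1T1* was read for myeloid blasts. With high *CD34*, 6 of 6 reached 1 normalized CPM, and 5 of 6 did with *CD34* near 0, where the missing gene was *CD34* itself. Since *CD34* and *RUNX1T1* define the sets, these counts cannot serve as a check of identity. *KIT*, *MPO*, *CD33* and *PTPRC* were above 1 in all 12 libraries. *MPO*, the granule enzyme myeloperoxidase, was lower without overlap with *CD34* near 0 (1783 to 5750 against 10437 to 22667), as was the stem cell factor receptor *KIT* (97.03 to 515.8 against 682.4 to 998.7). *PTPRC* went the other way and was higher without overlap (184.6 to 441.0 against 67.8 to 80.2). *CD33* overlapped (45.1 to 71.7 against 38.1 to 76.4), as did *RUNX1T1*. Over all genes, 15.6% were lower and 17.5% higher without overlap. The eosinophil lineage markers *IL5RA*, *EPX* and *CLC* moved with the *CD34* reading. Their summed level was 0.19 to 0.98 normalized CPM in the 6 libraries with high *CD34* and 42.2 to 150.5 in the 6 with *CD34* near 0. Within the latter, *CLC* was 3.18 to 4.42 with higher *RUNX1T1* and 64.3 to 80.8 with lower *RUNX1T1*. *IL5RA* was 36.3 to 47.5 and 53.5 to 68.0, while *EPX* went the other way at 2.63 to 3.32 and 1.15 to 1.66. Markers of other cells stayed low in all 12 libraries, with sums of at most 0.40 for T cells (0 of 3 markers reached 1), 0.85 for erythroid cells (0 of 3), 1.24 for stroma (1 of 3) and 3.12 for B cells (1 of 3, with *MS4A1* at 0). The part of these myeloid and eosinophil lineage markers in the values below was not tested.

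Per kb of exon, the STAT genes and *JAK1* had the highest medians of the 10 genes and *SOCS1* the lowest. The median level over the 12 libraries was 28.0 normalized CPM per kb for *STAT5A*, 19.5 for *STAT5B*, 16.8 for *STAT3* and 15.6 for *JAK1*. It was 5.23 for *JAK2*, 5.03 for *CISH*, 4.83 for *SOCS2*, 2.67 for *JAK3*, 1.24 for *SOCS3* and 0.22 for *SOCS1*. *STAT5A* was above *STAT5B* in 12 of 12 libraries and *JAK1* above *JAK2* in 12 of 12. *STAT5B* was above *STAT3* in 6 of 12 and *STAT3* above *JAK1* in 6 of 12, so the order of these neighbours changed between libraries. The same holds for *JAK2* and *CISH* (*JAK2* above in 6 of 12), for *CISH* and *SOCS2* (*CISH* above in 3), for *SOCS2* and *JAK3* (*SOCS2* above in 7), for *JAK3* and *SOCS3* (*JAK3* above in 7) and for *SOCS3* and *SOCS1* (*SOCS3* above in 10).

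**Figure D1:**
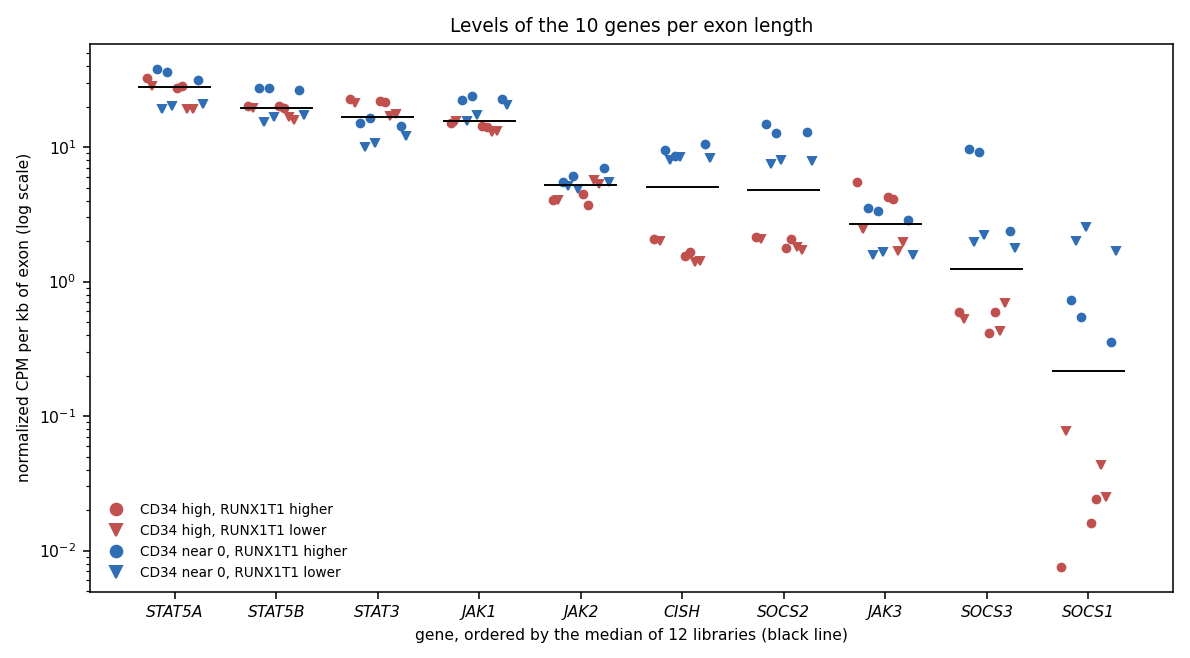
Normalized CPM per kb of exon (log scale) of the 10 genes, ordered by the median of 12 libraries (black line). Each point is 1 library, coloured by its *CD34* reading and shaped by its *RUNX1T1* reading. *STAT5A* leads with a median of 28.0, and the inhibitors *CISH*, *SOCS2*, *SOCS3* and *SOCS1* split into 2 separate bands by *CD34*.

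JAK1 serves the interferon, IL-2 and IL-6 families of receptors. Its gene (ENSG00000162434.12) is on the minus strand of chromosome 1 of GRCh38, between 64833229 and 64966549. *JAK1* had 95.7, 98.9 and 142.0 normalized CPM in replicates 1, 2 and 3 labelled Kasumi-1 siMM-mod, and under the label siRE-mod it had 99.4, 152.2 and 110.6. It had 91.3, 90.5 and 82.6 in the libraries labelled SKNO-1 siMM-mod, while 84.1, 144.0 and 130.0 stood under siRE-mod. The labelled groups overlapped in either line, and the 6 highest values were in the 6 libraries with *CD34* near 0.

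JAK2, the kinase of the GM-CSF, IL-3 and erythropoietin receptors, was below *JAK1* per kb in 12 of 12 libraries. *JAK2* (ENSG00000096968.13, chromosome 9, 4984390 to 5128183, plus strand) had 24.8, 24.8 and 34.1 normalized CPM in the libraries labelled Kasumi-1 siMM-mod. Under the label siRE-mod it had 31.6, 37.9 and 30.2. In SKNO-1 it had 27.7, 23.1 and 34.98 labelled siMM-mod and 32.9, 42.9 and 34.2 labelled siRE-mod. Its highest value was 1.86 times its lowest, and neither the labels nor the *CD34* reading separated the libraries.

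JAK3 pairs with the common gamma chain of the IL-2 receptor family and is largely restricted to blood cells. *JAK3* (ENSG00000105639.18, chromosome 19, 17824780 to 17848071, minus strand) had 37.6, 16.9 and 24.1 normalized CPM in the libraries labelled Kasumi-1 siMM-mod. The siRE-mod label of that line gave 10.7, 23.0 and 11.4. In SKNO-1 its levels were 29.2, 28.2 and 11.5 labelled siMM-mod and 13.3, 19.5 and 10.8 labelled siRE-mod. The 6 libraries with the higher *RUNX1T1* reading of their *CD34* set held the 6 highest *JAK3* values, from 19.5 to 37.6, and the other 6 lay between 10.7 and 16.9.

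The 3 STAT genes lie side by side on chromosome 17 of GRCh38. *STAT5B* (ENSG00000173757.9) spans 42199168 to 42276707 on the minus strand, *STAT5A* (ENSG00000126561.16) spans 42287547 to 42311943 on the plus strand, and *STAT3* (ENSG00000168610.14) spans 42313324 to 42388568 on the minus strand. The gap is 10839 bases between *STAT5B* and *STAT5A* and 1380 bases between *STAT5A* and *STAT3*. Despite this neighbourhood, *STAT3* and the *STAT5* genes were ordered differently across the libraries.

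STAT3 relays signals of the IL-6 family and of G-CSF. *STAT3* had 202.3, 188.0 and 134.0 normalized CPM in the libraries labelled Kasumi-1 siMM-mod and, with the label siRE-mod, 87.8, 144.5 and 94.8. Those labelled SKNO-1 siMM-mod had 195.8, 189.7 and 151.3 and those labelled siRE-mod 155.5, 127.6 and 106.8. The 6 libraries with high *CD34* held the 6 highest values.

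*STAT5A* had 187.4, 163.9 and 220.4 normalized CPM in the libraries labelled Kasumi-1 siMM-mod, and 110.3, 208.9 and 116.9 were found under siRE-mod. The SKNO-1 labels gave 158.5, 163.3 and 110.8 for siMM-mod, and 110.8, 183.2 and 120.1 for siRE-mod. *STAT5B* had 130.9, 126.7 and 176.6 labelled Kasumi-1 siMM-mod, and 98.9, 179.0 and 108.5 labelled siRE-mod. The SKNO-1 libraries had 129.4, 125.1 and 108.0 normalized CPM of *STAT5B* labelled siMM-mod and 102.9, 171.7 and 112.0 labelled siRE-mod. The 3 highest values of *STAT5B*, and 2 of the 3 highest of *STAT5A*, were in the libraries with *CD34* near 0 and *RUNX1T1* at 159.2 or above.

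Per kb of exon, *STAT5A* was 1.15 to 1.604 times *STAT5B* over the 12 libraries, with a median of 1.28. The ratio of *STAT3* to *STAT5B* per kb was 1.03 to 1.13 in the 6 libraries with high *CD34* and 0.54 to 0.70 in the 6 with *CD34* near 0. The ratio of *JAK1* to *JAK2* per kb overlapped between these sets, at 2.29 to 3.86 and 3.05 to 4.04. Of the distinct stretches of 50 bases in the GENCODE 44 transcripts of *STAT5A*, 7.56% also occur in those of *STAT5B*, and 3.96% of those of *STAT5B* occur in those of *STAT5A*. Read pairs that lie wholly in shared stretches cannot be placed by sequence alone. The *STAT5* values are uncertain for that reason, and the share of reads affected was not measured. No other pair of the 10 genes shared such a stretch.

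SOCS1 blocks the kinase activity of JAKs bound to interferon and other receptors. *SOCS1* (ENSG00000185338.5, chromosome 16, 11254405 to 11256200, minus strand) was close to the detection limit in the libraries with high *CD34*, with 1, 11, 2, 3, 5 and 3 reads in those labelled Kasumi-1 siMM-mod replicates 1 and 2, SKNO-1 siMM-mod replicates 1, 2 and 3 and SKNO-1 siRE-mod replicate 1. The 6 libraries with *CD34* near 0 had 62 to 466 reads. In normalized CPM, *SOCS1* was at 0.01, 0.14 and 1.31 labelled Kasumi-1 siMM-mod and at 3.58, 0.98 and 4.60 labelled siRE-mod. Under the labels of SKNO-1 it was at 0.03, 0.04 and 0.08 for siMM-mod and at 0.04, 0.64 and 3.04 for siRE-mod.

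SOCS2 limits growth hormone and STAT5 signals. *SOCS2* (ENSG00000120833.14, chromosome 12, 93569814 to 93583487, plus strand) had 13.9, 13.5 and 97.1 normalized CPM in the libraries labelled Kasumi-1 siMM-mod. The 3 under siRE-mod were at 48.6, 82.7 and 51.9. For SKNO-1, *SOCS2* was at 11.4, 13.5 and 11.8 labelled siMM-mod and at 11.1, 84.7 and 51.3 labelled siRE-mod. The highest value of all 12 was thus in Kasumi-1 siMM-mod replicate 3, a library with the control label, and the lowest in SKNO-1 siRE-mod replicate 1, a library with the active label.

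SOCS3 acts on the shared IL-6 receptor chain gp130 and on the G-CSF receptor. *SOCS3* (ENSG00000184557.4, chromosome 17, 78356778 to 78360077, minus strand) had 1.63, 1.45 and 26.5 normalized CPM labelled Kasumi-1 siMM-mod and 5.36, 25.2 and 6.10 labelled siRE-mod. It had 1.14, 1.63 and 1.18 labelled SKNO-1 siMM-mod and 1.89, 6.53 and 4.91 labelled siRE-mod. The values above 20 occurred in a pair of libraries, both labelled Kasumi-1. SKNO-1 siRE-mod replicate 2, which had similar *CD34* and *RUNX1T1* readings, was at 6.53.

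CISH, the first described member of the family, binds activated cytokine receptors and competes with STAT5 for them. *CISH* (ENSG00000114737.15, chromosome 3, 50606490 to 50611831, minus strand) had 10.6, 10.2 and 48.6 normalized CPM labelled Kasumi-1 siMM-mod and 40.8, 43.99 and 43.2 labelled siRE-mod. It had 7.87, 8.51 and 7.18 labelled SKNO-1 siMM-mod and 7.30, 53.9 and 42.8 labelled siRE-mod. The 6 libraries with *CD34* near 0 lay between 40.8 and 53.9, and the other 6 between 7.18 and 10.6.

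**Figure D2:**
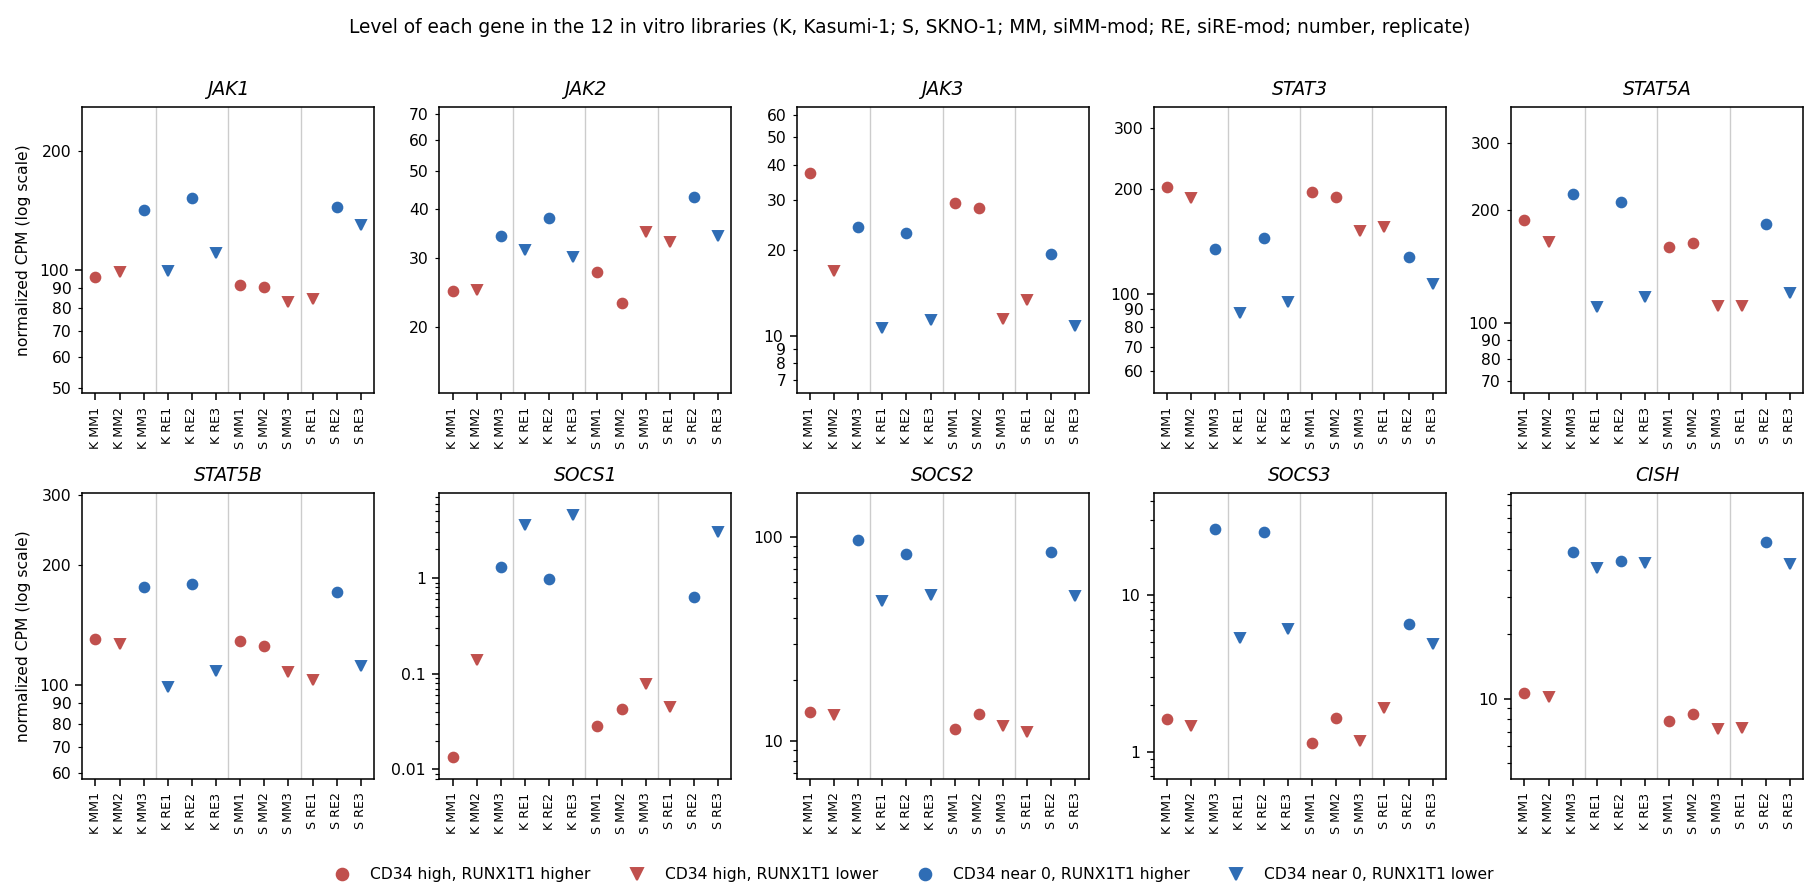
Normalized CPM (log scale, a separate axis for each gene) of the 10 genes in the 12 in vitro libraries, ordered by label. Each point is 1 library, coloured by its *CD34* reading and shaped by its *RUNX1T1* reading. *SOCS2* and *CISH* form 2 bands by *CD34* (11.1 to 13.9 against 48.6 to 97.1, and 7.18 to 10.6 against 40.8 to 53.9), and *JAK3* forms bands by *RUNX1T1*.

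The promoter of *CISH* is shown because the gene is a standard STAT5 readout and was the only one of the 9 genes with a RefSeq promoter (GRCh38.p14, 17 windows, none for *SOCS2*) whose window held the palindromic STAT motif TTCNNNGAA. Windows ran from 250 bases before to 50 bases after an annotated start. The motif reads the same on both strands, and CISH held it 4 times, as a pair of sites 241 and 230 bases before the start and a pair 129 and 112 bases before it. Of 34943 promoter windows, 7.66% held the motif at least once and 0.02% (7 windows) at least 4 times. Both pairs are given 5′ to 3′ on the strand of *CISH*, with the motifs in capitals.

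CISH site pair 1, chr3:50611995-50612024 (minus strand): cgccccgttTTCCTGGAAagTTCTTGGAAa

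CISH site pair 2, chr3:50611876-50611905 (minus strand): ggTTCTAGGAAgacgctgcTTCCGGGAAgg

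The first pair lies in an exon of the divergent gene *MAPKAPK3* and the second in no annotated exon. The RUNX core motif TGTGGT, searched on both strands, was in 13.1% of all windows and in none of the 17 windows of these genes. A match of letters is not a measured binding site.

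Some exons are shared with genes on the opposite strand, and whether the counting used strand is not given in the sources used here. *CISH* shares 218 bases (4.26% of its exons) with *MAPKAPK3*, which was at 117.7 to 196.8 normalized CPM with high *CD34* and 86.8 to 148.5 with *CD34* near 0, ranges that overlap and whose higher values were in the set with lower *CISH*. *SOCS2* shares 277 bases (4.28%) with *SOCS2-AS1*, at 2.97 to 5.08 and 3.75 to 12.8 in the same sets. These ranges also overlap, and the highest values were in the set with higher *SOCS2*. With *CD34* near 0, *SOCS2-AS1* was 10.0 to 12.8 with higher *RUNX1T1* and 3.75 to 4.74 with lower *RUNX1T1*, the same direction as *SOCS2*. The part of such reads in the *SOCS2* values was not tested. If the counting did not use strand, reads from the shared bases could not be assigned to a single gene.

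To ask whether the active siRNA changed these genes, libraries labelled siRE-mod were compared with those labelled siMM-mod in each line. In Kasumi-1, none of the 10 genes passed an adjusted p of 0.05 (edgeR's quasi-likelihood test, Benjamini-Hochberg adjustment over 13608 genes). The background was 0%, since 0 genes of all those tested passed, and 2435 had an unadjusted p under 0.05. DESeq2 called 1156 genes (8.5%), of which 0 were among the 10. The estimated log2 fold change (± SE) of *STAT3* was -0.68 ± 0.26 (edgeR, adjusted p = 0.262), that of *JAK3* -0.80 ± 0.43 (0.356) and that of *STAT5A* -0.38 ± 0.28 (0.470). It was 0.90 ± 0.64 for *CISH* (edgeR, adjusted p = 0.462), 2.65 ± 1.41 for *SOCS1* (0.357), 0.58 ± 0.82 for *SOCS2* (0.706) and 0.33 ± 1.28 for *SOCS3* (0.896). *JAK1*, *JAK2* and *STAT5B* lay between -0.16 and 0.26. The labelled groups overlapped for all 10 genes, whereas 21.5% of 15863 genes did not overlap. In the CPM as deposited, *JAK2* and *CISH* were higher without overlap.

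In SKNO-1, 0 of the 9 genes tested passed, again with a background of 0% over 13628 genes (edgeR), of which 1455 had an unadjusted p under 0.05. On the log2 scale, the differences were 2.13 ± 0.66 for *CISH*, 1.99 ± 0.65 for *SOCS2* and 1.75 ± 0.55 for *SOCS3*, each with an adjusted p of 0.466 in edgeR. They were 0.43 ± 0.22 for *JAK1* (edgeR, adjusted p = 0.504), -0.46 ± 0.21 for *STAT3* (0.476) and -0.65 ± 0.41 for *JAK3* (0.569). *JAK2*, *STAT5A* and *STAT5B* lay between -0.06 and 0.36. *SOCS3* was the single gene whose labelled groups did not overlap (1.89 to 6.53 labelled siRE-mod, 1.14 to 1.63 labelled siMM-mod), against 5.93% of all genes that were higher without overlap. DESeq2 called 2.73% of genes. With it, *SOCS2* and *CISH* were higher under the siRE-mod label (adjusted p = 0.0432 and 0.0288, log2 fold changes of 1.97 and 2.10). Replicates 2 and 3 of that label, with *CD34* near 0, had 84.7 and 51.3 normalized CPM of *SOCS2* and 53.9 and 42.8 of *CISH*. Replicate 1, with high *CD34* like all libraries labelled SKNO-1 siMM-mod, had 11.1 and 7.30. The parts of the label and of the *CD34* reading in these calls were not tested.

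Single libraries decided these outcomes. When Kasumi-1 siMM-mod replicate 3 was left out, edgeR called 32.2% of genes and 5 of the 10. *CISH* (2.04 ± 0.13 on the log2 scale), *SOCS2* (2.16 ± 0.28), *SOCS3* (2.99 ± 0.83) and *SOCS1* (5.26 ± 1.09) rose and *STAT3* fell by 0.84 ± 0.23. When SKNO-1 siRE-mod replicate 1 was left out, the calls were 19.3% of genes and 4 of the 9 tested, with *CISH* (2.60 ± 0.21), *SOCS2* (2.45 ± 0.27), *SOCS3* (2.10 ± 0.38) and *JAK1* (0.61 ± 0.16) raised. In each of these fits, the libraries left under siMM-mod all had high *CD34* and those under siRE-mod all had *CD34* near 0, so the label and the *CD34* reading cannot be told apart in them.

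The siRE-mod difference was then compared between the lines as an interaction over all 12 libraries. None of the 10 genes passed, with a background of 0% over 15863 genes in edgeR (106 at an unadjusted p under 0.05). DESeq2 called 118 genes (0.744%) and 0 of the 10. The largest values were 1.98 ± 2.06 for *SOCS1*, 1.45 ± 1.48 for *SOCS3*, 1.44 ± 1.14 for *SOCS2* and 1.26 ± 0.99 for *CISH*, with an adjusted p of 1.000 each in edgeR. The standard error of each inhibitor was close to or above 1, so the interaction was estimated with little precision.

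The line contrast asked whether SKNO-1, kept in GM-CSF, and Kasumi-1, kept without it, differed in the genes through which GM-CSF signals. None of the 10 genes passed (background 0% over 15863 genes in edgeR, 2048 at an unadjusted p under 0.05). The log2 difference of SKNO-1 minus Kasumi-1 was -0.93 ± 0.50 for *CISH* (edgeR, adjusted p = 0.386), -1.04 ± 0.58 for *SOCS2* (0.393), -2.18 ± 0.77 for *SOCS3* (0.376) and -2.28 ± 1.06 for *SOCS1* (0.376). When Kasumi-1 siMM-mod replicate 3 was left out, these differences were -0.38, -0.27, -0.87 and -0.99, the values nearest 0 over the 12 fits with a library left out. The values furthest from 0 were -1.17, -1.36, -2.43 and -3.20, and no sign changed. With all libraries, the difference of *JAK2* was 0.09 ± 0.15 (edgeR, adjusted p = 0.734), and the other kinases and the STAT genes lay between -0.24 and 0.14. The labelled lines overlapped for all 10 genes, against 0.687% of genes without overlap. DESeq2 called 2.31% of genes, and with it *SOCS3* was lower in SKNO-1, with a log2 difference of -2.19 (adjusted p = 0.0484). *CISH*, *SOCS1*, *SOCS2* and *SOCS3* were at their high levels in 4 libraries labelled Kasumi-1, the line grown without added GM-CSF, and in 2 labelled SKNO-1.

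**Figure D3:**
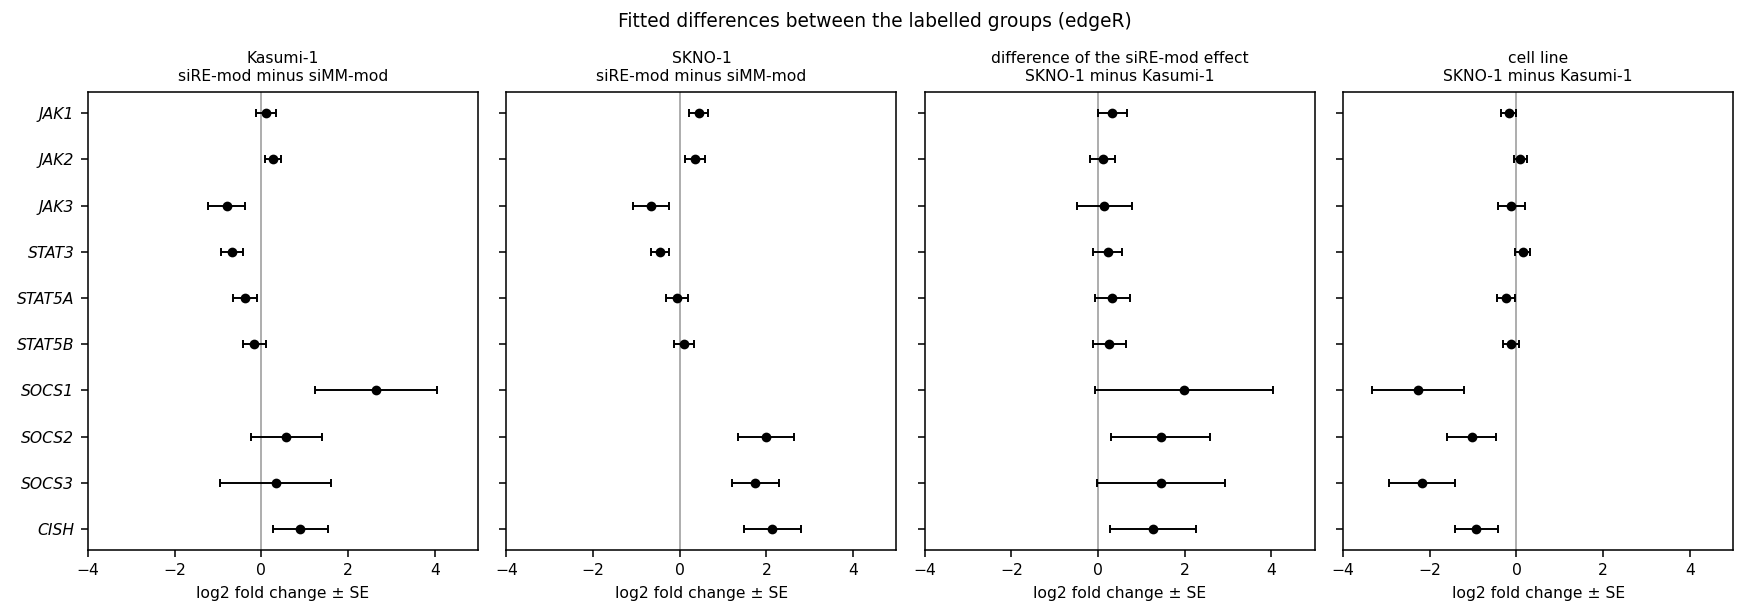
Log2 fold changes with their standard errors for the 10 genes in the 4 comparisons between labelled groups (edgeR). *SOCS1* has no value in SKNO-1, where it was below 600 reads. The inhibitors carry the widest errors, from 0.50 for *CISH* between the lines to 2.06 for *SOCS1* in the interaction, and no value passed the adjusted threshold.

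Read by *CD34*, 5 of the 10 genes were higher in all 6 libraries with *CD34* near 0 than in all 6 with high *CD34*, against 17.5% of 15863 genes, and 1 of 10 was lower, against 15.6%. For *SOCS1*, the lowest library with *CD34* near 0 was 4.55 times the highest of the others. This gap was 3.84 times for *CISH*, 3.49 times for *SOCS2* and 2.59 times for *SOCS3*. *JAK1* was separated by 1.01 times only (99.4 to 152.2 against 82.6 to 98.9), and its sets overlapped with DESeq2's size factors. *STAT3* was the gene that was lower, with 87.8 to 144.5 against 151.3 to 202.3, a gap of 1.05 times. *JAK2*, *JAK3*, *STAT5A* and *STAT5B* overlapped.

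Among the libraries with *CD34* near 0, 8 of the 10 genes were lower in the 3 with lower *RUNX1T1* than in the 3 with higher *RUNX1T1*, against 21.6% of genes, and 1 was higher, against 21.7%. *JAK3* was 10.7 to 11.4 against 19.5 to 24.1, *STAT5A* 110.3 to 120.1 against 183.2 to 220.4, and *STAT5B* 98.9 to 112.0 against 171.7 to 179.0. *SOCS2* was 48.6 to 51.9 against 82.7 to 97.1, and *STAT3* 87.8 to 106.8 against 127.6 to 144.5. Gaps were narrower for *JAK1* (1.09 times), *SOCS3* (1.07 times) and *CISH* (1.02 times), and these 3 overlapped in the CPM as deposited, which leaves 5 genes lower. *SOCS1* went the other way, with 3.04 to 4.60 in the libraries with lower *RUNX1T1* and 0.64 to 1.31 in those with higher *RUNX1T1*. *JAK2* overlapped, with 30.2 to 34.2 against 34.1 to 42.9, and was a 9th gene that was lower when DESeq2's size factors were used.

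With high *CD34*, 2 of the 10 genes were lower in the 3 libraries with lower *RUNX1T1*, against 20.1% of genes, and 1 was higher, against 18.1%. *JAK3* was 11.5 to 16.9 against 28.2 to 37.6, and among the genes that were lower it was the one separated most widely in this set as well as in the other. *STAT3* was 151.3 to 188.0 against 189.7 to 202.3, a gap of 1.01 times. *SOCS1* had 3 to 11 reads against 1 to 3 reads and overlapped with DESeq2's size factors, so its order was not detectable at this depth. *SOCS2*, *SOCS3* and *CISH* overlapped here, between 11.1 and 13.9, 1.14 and 1.89, and 7.18 and 10.6. *SOCS2* was thus separated by *RUNX1T1* with *CD34* near 0 and not with high *CD34*, and the difference between the sets was not tested. *STAT5B* overlapped at 102.9 to 126.7 and 125.1 to 130.9, and was lower without overlap with DESeq2's size factors.

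The rest of the pathway was read from 5 lists of other genes. None of the genes in any list passed the adjusted threshold in edgeR in any of the 4 comparisons. Receptors that signal through JAKs had a median difference between the siRNA labels of 0.28 in Kasumi-1 libraries and 0.42 in SKNO-1 libraries (log2) over 14 genes tested, beside 0.02 and 0.03 over all genes, and an unadjusted p under 0.05 was reached by 2 and 5 of them. Over all genes, 17.9% and 10.7% reached it. Genes widely used as targets of STAT5 or STAT3 had medians of 0.64 and 0.55 over 11 genes tested, with 3 and 4 at an unadjusted p under 0.05. The other JAKs and STATs (5 genes) had medians of -0.03 and 0.30, the other SOCS and PIAS inhibitors (8 genes) 0.07 and 0.13, and the phosphatases and adaptors (8 genes) 0.12 and 0.14. In these 3 lists, the unadjusted p was under 0.05 for 0 and 2, 1 and 1, and 0 and 2 genes.

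The named genes of each list are among the 3 with the widest range over the 12 libraries. *CSF2RB*, the beta chain shared by the receptors for GM-CSF, IL-3 and IL-5, was 3.45 to 4.64 normalized CPM with high *CD34*. With *CD34* near 0 it was 62.2 to 65.9 in the 3 libraries with higher *RUNX1T1* and 258.4 to 289.7 in the 3 with lower *RUNX1T1*. *IL5RA*, the IL-5 receptor alpha chain, was at most 0.18 with high *CD34* and 36.3 to 68.0 otherwise. *IL10RA* was 0.20 to 1.05 with high *CD34*, and with *CD34* near 0 it was 1.10 to 1.44 with higher and 10.5 to 13.7 with lower *RUNX1T1*. Of the 14 receptor genes with at least 600 reads, 7 were higher with *CD34* near 0 without overlap and 3 were lower (*CSF3R*, *EPOR* and *IL6ST*), against the 17.5% and 15.6% of all genes given above. *CSF2RA* and *IL3RA* lie in the region shared by the X and Y chromosomes and were counted on either copy (9634 and 9676 reads in all for *CSF2RA*), so their levels are uncertain.

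Among the targets, *PIM1*, a survival kinase induced by STAT5, was 8.61 to 12.4 normalized CPM with high *CD34* and 269.5 to 446.0 with *CD34* near 0. *IL2RA*, the IL-2 receptor alpha chain, was at most 0.06 and 40.6 to 66.1 in the same sets. *OSM*, the cytokine oncostatin M, was 0.61 to 2.03 with high *CD34*, and with *CD34* near 0 it was 10.1 to 12.1 with higher and 63.2 to 80.2 with lower *RUNX1T1*. Of 12 target genes, 4 were higher without overlap with *CD34* near 0 (*PIM1*, *BCL2L1*, *OSM* and *IL2RA*) and 2 were lower (*BCL6* and *CCND1*), against 17.5% and 15.6% of all genes.

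*STAT4*, which mediates IL-12 signals in lymphocytes, was at most 0.08 normalized CPM with high *CD34* and 33.3 to 44.4 with *CD34* near 0. *STAT2*, a factor of the type I interferon response, overlapped at 43.9 to 61.3 and 44.4 to 74.7 in the same sets. *PTPN6*, which encodes the phosphatase SHP-1, was 56.1 to 119.5 with high *CD34* and 217.9 to 534.3 with *CD34* near 0, and *PTPRC*, which encodes the phosphatase CD45, was 67.8 to 80.2 and 184.6 to 441.0. The adaptor *SH2B3* overlapped at 35.3 to 56.4 and 24.0 to 76.5. The inhibitors *SOCS4* and *SOCS5* were 21.5 to 32.8 and 15.5 to 18.6 with high *CD34*, and 32.9 to 41.2 and 29.9 to 37.6 with *CD34* near 0. The sets of *SOCS4* were barely separated (32.84 against 32.91), and its order was not checked with other scalings. *PIAS4* was lower with *CD34* near 0, at 9.72 to 16.8 against 19.1 to 30.4.

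**Figure D4:**
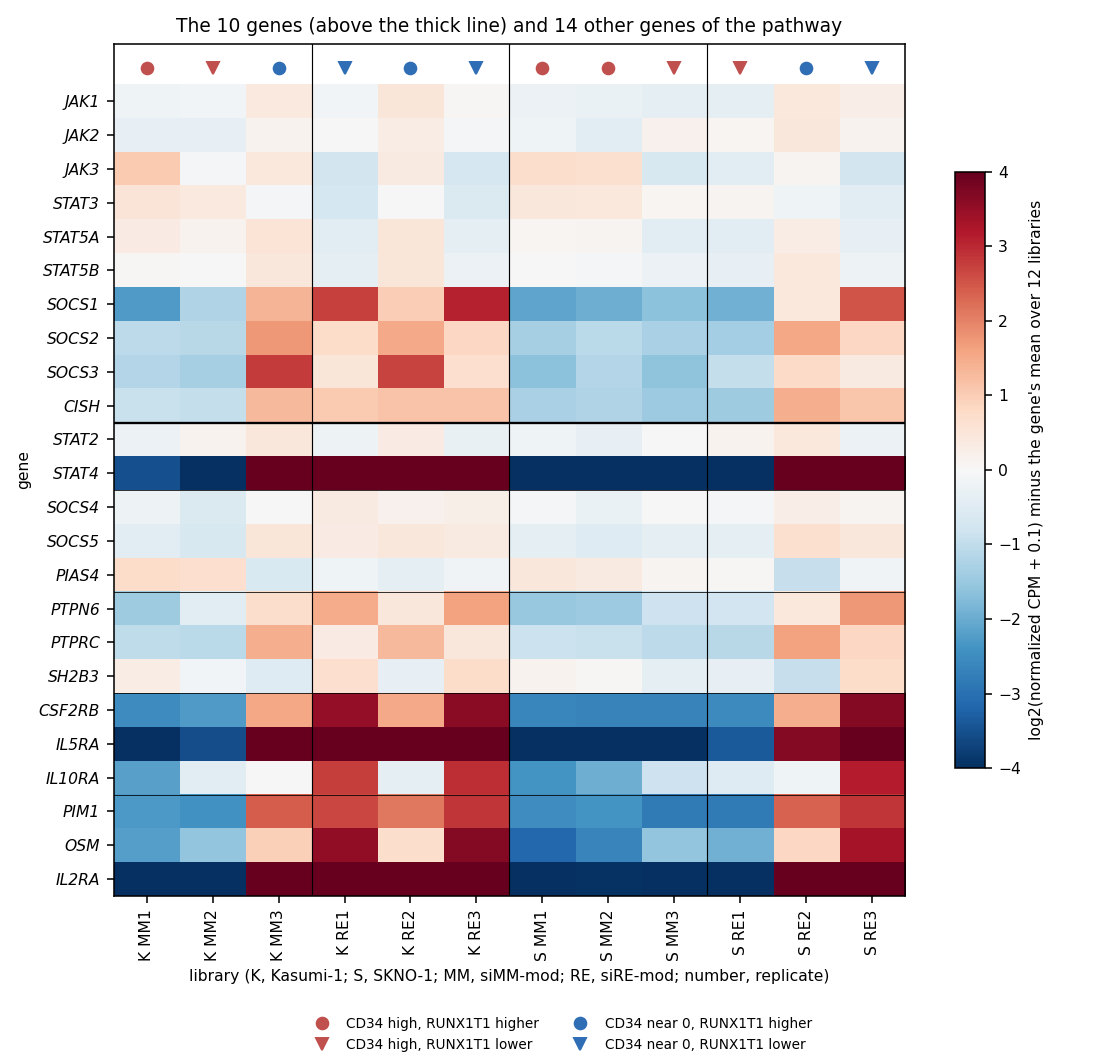
Centred levels, as log2(normalized CPM + 0.1) minus the mean of each gene over the 12 libraries, for the 10 genes (above the thick line) and 14 other genes of the pathway, 2 or 3 from each list. Columns are libraries ordered by label, with symbols for their *CD34* and *RUNX1T1* readings, and the colour scale ends at 4 in either direction. *STAT4*, *IL5RA* and *IL2RA* reach or come near the ends of the scale and change with the *CD34* reading, whereas *JAK1* and *JAK2* stay near 0.

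*SOCS1*, *SOCS3* and *SOCS2* had the widest ranges of the 10 genes, at 7.04, 4.51 and 3.13 on the log2 scale of edgeR (prior count of 2), followed by *CISH* at 2.90. For these, the genes with the most similar centred profile were sought among 13959 genes with a mean of at least 1 normalized CPM, as the smallest mean absolute log2 difference over the 12 libraries. *SOCS2* was closest to *CCL28* (0.11), *FAM92A* (0.14) and *GCNT1* (0.15), where the median of all genes was 1.22. *SOCS1* was closest to *S100A6* (0.35), *CSF2RB* (0.43) and *OSM* (0.44), with a median of 2.37. *SOCS3* was closest to *RGS1* (0.40), *PRR5L* (0.44) and *SOCS2* (0.45), with a median of 1.35. All 12 libraries enter each profile, and most of its spread is that between the *CD34* sets.

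In the 4 in vivo libraries, made from Kasumi-1 cells taken out of mice, all 10 genes are listed at 0, as are *ACTB*, *GAPDH* and *EEF1A1*, and only 14 to 18 genes have any count. No level of these 10 genes was taken from them.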

How the data were processed

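RNA-seq reads were trimmed with Trim Galore 0.6.5 and aligned to GRCh38 with STAR 2.7.10a by the authors. They counted reads over the exons of each gene (subread 1.6.5 in the methods, Rsubread 1.32.4 in the headers) and deposited raw counts, CPM and FPKM for the 12 in vitro libraries. The deposited CPM are the same counts scaled to the library total, and the FPKM are these CPM per kb, so tests used the counts. The authors' in vivo tables hold counts per gene and were read only to look up the genes.

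Libraries were grouped by their labels. A minimum of 600 reads summed over the libraries of a fit, which the study also used, was set, and genes were tested with edgeR 4.0.16 in R 4.3.3 (TMM, quasi-likelihood test, Benjamini-Hochberg adjustment over all genes, threshold 0.05). The pipeline was tested on data simulated with less spread between libraries than these have and with no *CD34* split within groups. That test cannot say what would be recovered at the spread seen here. The study used DESeq2, which was run here as an alternative (1.42.0). Further alternatives were DESeq2's size factors, no filter, filterByExpr, all 12 libraries in 1 fit, a block for the replicate number, each library left out, and, for levels, the deposited CPM.

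The 10 genes, the lists and the comparisons were chosen with earlier results of these data known. Named genes were the 10, *CD34*, *RUNX1T1*, the 3 of each list with the widest log2 range among those with a mean of at least 1 normalized CPM, and the 3 nearest profiles of the 3 genes with the widest range. Of these, 1 list gene is not reported here. Genes named as overlapping, as cell markers, as in vivo checks or within a count were chosen after their values were seen. Motifs were searched with Python 3.11.15 in RefSeq promoters, and figures were drawn with matplotlib 3.10.9. No pair of libraries of a group agreed within sampling noise (smallest chi-square per degree of freedom 26.2). Replicate numbers did not pair the libraries (correlations from -0.27 to -0.01).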

Additional observations from a re-analysis of the deposited data

How the results depend on the processing

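With DESeq2 in place of edgeR, the calls were 1156 genes (8.5%, Kasumi-1), 372 (2.73%, SKNO-1), 118 (0.744%, interaction) and 366 (2.31%, SKNO-1 against Kasumi-1). In SKNO-1, 2 of the 9 genes tested were called, and between the lines 1 of the 10 was. With single libraries left out, the calls in Kasumi-1 ranged from 0 to 4250 genes (32.2%) and from 0 to 5 of the 10. In SKNO-1 they ranged from 0 to 2535 genes (19.3%) and from 0 to 4 of the 9 tested, and between the lines from 0 to 7 genes. The 7 were called when SKNO-1 siRE-mod replicate 3 was left out. With the replicate number as a block, 0 genes were called in all 4 comparisons. DESeq2's size factors, no filter, filterByExpr and all 12 libraries in 1 fit also called 0.

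Some log2 fold changes changed sign, all of them far from the threshold except that of *SOCS3*. That of *JAK2* between the lines was -0.047 with no filter and -0.0047 with filterByExpr. With each library omitted, the ranges in Kasumi-1 were -0.083 to 0.31 for *JAK1*, -0.47 to 0.00076 for *STAT5B* and -0.76 to 2.99 for *SOCS3*. In SKNO-1 they were -0.32 to 0.060 for *STAT5A* and -0.17 to 0.21 for *STAT5B*. For the interaction, the difference of the siRE-mod effect between the lines, they were -0.10 to 0.28 for *JAK2*, -0.21 to 0.59 for *JAK3* and -0.0047 to 0.57 for *STAT5B*. The inhibitors ranged there from -0.69 to 2.54 for *SOCS1*, -0.19 to 1.90 for *SOCS2* and -1.26 to 2.54 for *SOCS3*. For SKNO-1 against Kasumi-1 they were -0.25 to 0.11 for *JAK3* and -0.26 to 0.029 for *STAT5B*. The cause was not tested. Of 240 alternative levels of the 10 genes, 10 moved by more than the SD of their group, all with the CPM as deposited, which shifted the median gene by -0.23 to 0.25 (log2) in single libraries. Levels of *SOCS1* under about 10 reads are limited by depth.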
